A study of Homo sapiens with 4 samples.

Results

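The comparison described here asked how a 24 h treatment with an inhibitor of the kinase IKKb altered the response of a lymphoma line to silencing of the related kinase IKKa for 3 days. It rests on 2 of the 4 arrays of the series. Both were two-colour arrays that measured RNA of OCI-Ly3, an established human line of diffuse large B cell lymphoma of the activated B cell (ABC) type, in which doxycycline switches on a short hairpin RNA that targets IKKa. On the array without inhibitor, cells induced for 3 days with 20 ng/ml doxycycline were labelled with Cy5 and set against untreated cells of the same line, labelled with Cy3. On the array with inhibitor, cells given the same 3 days of doxycycline and, over the last 24 h, 12.5 uM of the IKKb inhibitor MLN120b were labelled with Cy5 and set against cells that received 24 h of MLN120b and no doxycycline, labelled with Cy3. Each array thus held the response to doxycycline at 1 inhibitor status. The difference between both arrays showed how that response differed with the inhibitor present, and the effect of the inhibitor alone was on neither array. An array with a control hairpin was not analysed here, so doxycycline itself and the hairpin cannot be told apart. Each side was 1 array, so no test and no replicate error could be had.

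A member of the comparison was any probe with a value on both arrays, which held for 10693 of 15246 probes (70.1%). A further 1029 probes had a value on the inhibitor array alone and 1853 on the other array alone. Of the 10693 probes, 7357 named a single gene and covered 3797 genes, and 3336 did not name 1 gene. Values are log2 ratios, read here as Cy5 over Cy3, so that a value below 0 means less RNA in the doxycycline cells. The file states neither the direction nor the base. The labels place the doxycycline RNA in Cy5 on both arrays and CHUK, the gene of IKKa, was below 0 on all 4 arrays under this reading, so it is the likely one. Were it turned, every sign below would turn with it. The difference is the inhibitor array minus the array without inhibitor. A gene's value is the mean of its probes, and "lower" or "higher" without further words means a difference below or above 0. The log ratios held no levels, so the B cell identity of the line could not be checked from its markers.

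NF-kB is a family of transcription factors that inhibitor proteins of the IkB family hold in the cytoplasm. In the classical pathway the IKK complex, built of IKKa, IKKb and a regulatory subunit, phosphorylates IkB, which is then degraded. The freed factors switch on genes for chemokines, for survival and for their own inhibitors, among them IkBa (NFKBIA) and A20 (TNFAIP3), which close a feedback loop. Lymphomas of the ABC type are known for constant activity of this pathway.

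Promoters are shown for 3 of the 7 listed NF-kB targets with 2 or more probes that were all lower with inhibitor. Each window spans 250 bases before to 50 bases after the RefSeq gene start in GRCh38.p14. NFKBIA lies on the minus strand at chr14:35404700-35404999, TNFAIP3 on the plus strand at chr6:137867009-137867308, and CXCL10, a chemokine that draws activated T cells, on the minus strand at chr4:76023448-76023747. Capitals mark matches to the kB motif GGGANNNNCC on either strand.
NFKBIA: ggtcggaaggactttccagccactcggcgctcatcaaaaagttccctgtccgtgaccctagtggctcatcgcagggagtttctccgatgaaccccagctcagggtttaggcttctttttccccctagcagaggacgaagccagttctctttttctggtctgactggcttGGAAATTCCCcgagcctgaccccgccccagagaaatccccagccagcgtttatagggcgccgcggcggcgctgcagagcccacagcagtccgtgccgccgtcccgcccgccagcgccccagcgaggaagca
TNFAIP3: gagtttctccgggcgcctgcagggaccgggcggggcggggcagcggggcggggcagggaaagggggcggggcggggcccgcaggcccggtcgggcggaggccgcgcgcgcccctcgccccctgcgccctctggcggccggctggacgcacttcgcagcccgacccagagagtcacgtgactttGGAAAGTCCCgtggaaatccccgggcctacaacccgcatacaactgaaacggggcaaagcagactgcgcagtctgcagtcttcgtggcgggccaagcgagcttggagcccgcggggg
CXCL10: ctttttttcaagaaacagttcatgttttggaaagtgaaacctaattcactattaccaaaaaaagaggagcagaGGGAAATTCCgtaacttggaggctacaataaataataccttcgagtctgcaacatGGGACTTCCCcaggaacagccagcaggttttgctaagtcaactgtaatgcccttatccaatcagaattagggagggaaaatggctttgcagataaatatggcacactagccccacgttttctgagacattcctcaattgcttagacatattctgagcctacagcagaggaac
The match began 81 bases before the gene start in NFKBIA and 67 bases before it in TNFAIP3, and CXCL10 held 2 matches, at 177 and 122 bases before. Such a match is common: 25.1% of all 27305 RefSeq promoters of this length held one, and 31.8% of the 3105 promoters found for genes on both arrays. Among the 46 members of the NF-kB target list with a promoter entry, 26 held a match. These 26 had a median difference of −0.06, with 16 below 0, and the 20 without a match had a median of 0.05, with 7 below 0. CFLAR, lower on every probe, held no match, while RGS1 and IL2RA, both higher, held matches. A match is a description of the letters and not evidence of binding.

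CHUK is the gene that the hairpin targets. Its sign helped to choose the reading of the ratios, so a value below 0 is no independent check of silencing. The log2 ratio of CHUK was −0.87 without and −1.01 with inhibitor, as the mean of 2 probes. The first probe read −0.52 and −0.81, and the second −1.23 and −1.21. The difference of −0.14 was smaller than the SD of 0.21 between both probes, and with both arrays scaled to the same spread it turned to 0.18. Under the chosen reading CHUK was thus low on both arrays, to a degree that these probes did not separate.

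Most genes had similar log ratios on both arrays. The difference stayed within 1.5-fold for 3512 of 3797 genes (92.5%), and the log ratios of genes on both arrays had a Pearson r of 0.74 and a Spearman rho of 0.78, a description across genes, which are not independent replicates. The inhibitor array spread more widely, with a median absolute deviation of 0.27 against 0.18. Beyond 1.5-fold, 211 genes were higher (5.56%) and 74 were lower (1.95%). Of the 211 higher genes, 158 lay further from 0 on the same side with inhibitor, 49 lay on the other side of 0 and 4 lay nearer to 0. Of the 74 lower genes, 45 lay further out, 26 on the other side and 3 nearer. The median difference over all genes was 0.06, and 60.1% of genes lay above 0. The part of the wider spread in these counts was not tested, and with both arrays scaled to the same spread 139 genes were higher and 52 lower.

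**Figure D1:**
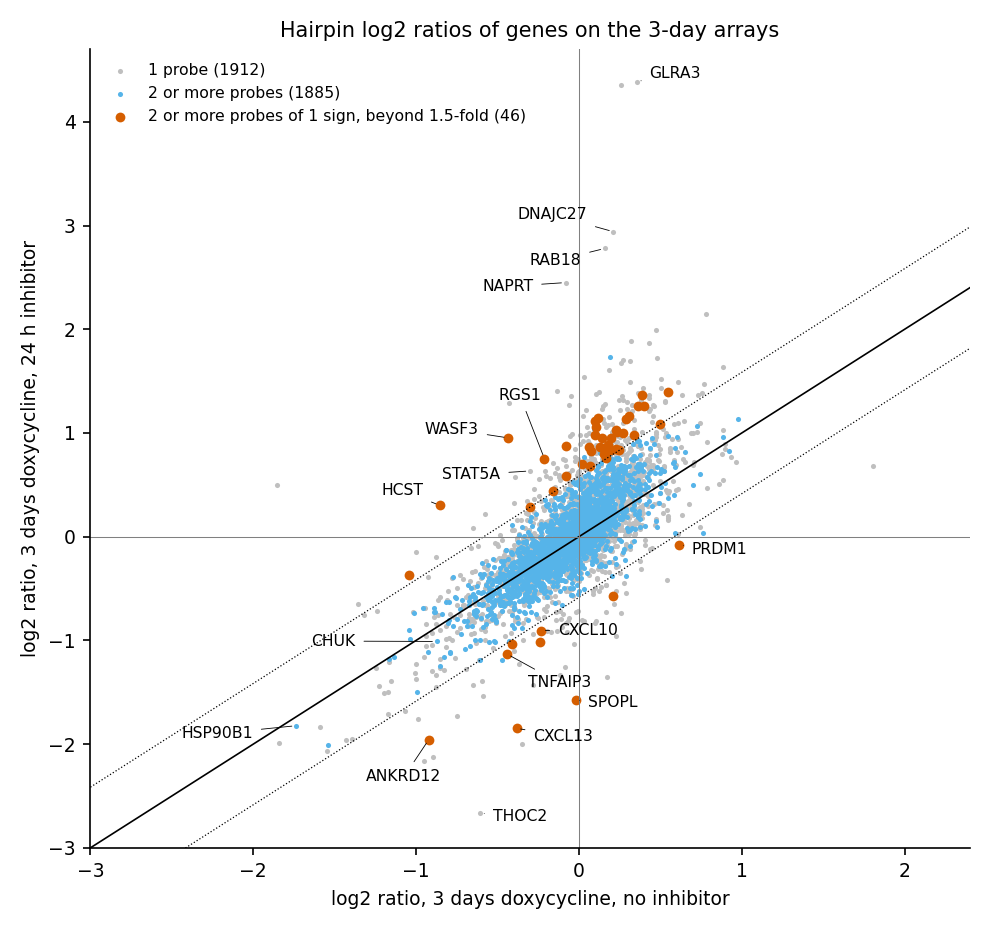
Log2 ratio of each of 3797 genes on the array with 24 h inhibitor (vertical axis) against the array without (horizontal axis), both after 3 days of doxycycline. The solid line marks equal values and the dotted lines a 1.5-fold difference. Grey points are genes with 1 probe, blue points genes with 2 or more, and orange points the 46 genes beyond 1.5-fold whose probes all had 1 sign. CXCL13, SPOPL and TNFAIP3 lie below the band, RGS1 above it, and the farthest points above it are genes with 1 probe.

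Probes of 1 gene gave the check on measurement, although they shared the RNA and the array and so say nothing of how another culture would read. Over the 1885 genes with 2 or more probes, the SD of the difference between probes of a gene was 0.30, above the SD of 0.25 between these genes. All probes lay on 1 side of 0 in 853 of the 1885 (45.3%), and among the 1020 genes with exactly 2 probes in 591 (57.9%). Small differences of single genes were therefore within probe error. Beyond 1.5-fold, 46 of 54 genes with 2 or more probes (85.2%) had all probes of 1 sign. Of these, 37 were higher (1.96% of 1885) and 9 lower (0.477%). The 54 genes were chosen by the mean of the same probes, so their higher share of agreement is partly built in. For 14 genes every single probe passed 1.5-fold, 11 higher and 3 lower. Genes with 1 probe passed 1.5-fold far more often, 231 of 1912 (12.1%) against 2.86% of genes with 2 or more. Part of this lies in the averaging, since of the single probes of the latter genes 7.82% passed.

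The classical feedback inhibitors and CXCL10 had lower log ratios with the inhibitor. For TNFAIP3, the deubiquitinase A20, the 6 probes read −0.75, −0.77, −0.43, −0.35, −0.19 and −0.17 without inhibitor and, in the same order, −1.60, −1.35, −1.00, −0.94, −1.08 and −0.82 with it. Every probe was lower with inhibitor, and all values with it lay below all values without it. The mean went from −0.44 to −1.13, a difference of −0.69 ± 0.14 (SD over 6 probes), or 1.61-fold. For CXCL10 the 7 probes ranged from −0.34 to −0.04 without and from −1.07 to −0.68 with inhibitor. The ranges did not overlap, and the mean difference was −0.67 ± 0.14 (SD over 7 probes), or 1.59-fold. For NFKBIA, the inhibitor IkBa, the 5 probes ranged from −0.71 to −0.20 without and from −1.19 to −0.59 with inhibitor. The ranges overlapped, but each probe was lower, with differences from −0.60 to −0.30, and the mean of −0.48 ± 0.13 (SD over 5 probes) stayed within 1.5-fold. Scaled to equal spread, the differences shrank to −0.44 for TNFAIP3, −0.50 for CXCL10 and −0.27 for NFKBIA, and none then passed 1.5-fold.

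Survival genes among the NF-kB targets lay on both sides of 0. BCL2L1, BIRC2, TRAF1 and TNFAIP8 (chosen after their values were seen) had 0.02, 0.07, 0.19 and 0.20, against a median of 0.06 over all genes. Of these, BCL2L1, BIRC2 and TRAF1 had probes on both sides of 0, and TNFAIP8 had 1 probe. CFLAR and BCL2A1 were lower. CFLAR, whose product c-FLIP blocks caspase-8, read −0.39 and −0.14 on its 2 probes without and −0.95 and −0.54 with inhibitor, a difference of −0.48 ± 0.12 (SD over 2 probes). BCL2A1, a member of the BCL2 family that protects from apoptosis, had a mean log ratio of 0.16 without and −0.28 with inhibitor. Of its 5 probes 4 were lower, with differences from −0.74 to −0.48, and 1 was higher by 0.11. BIRC3, another survival gene, was not among the genes measured here. CCND2, a D-type cyclin, was lower on both probes with a mean of −0.30, and GADD45B had −0.29 on its only probe.

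Subunits of NF-kB and their partners differed little. REL, the subunit c-Rel, had −0.35 over 3 probes that ranged from −0.61 to 0.01. NFKB1, the gene of p50 and its precursor, had −0.13 and NFKB2, the gene of p52 and its precursor, 0.14, each with probes on both sides of 0. RELB had −0.06 and BCL3, an IkB protein of the nucleus, −0.06, again with probes on both sides. RELA, the subunit p65 (chosen after its value was seen), had −0.19 and −0.17 on its 2 probes.

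The other chemokines and cytokines of the named set lay on both sides of 0. CXCL13, which is not on the NF-kB target list, was lower on both probes and is described further below. CCL17 (chosen after its value was seen) and CCL22, both ligands of the receptor CCR4, had 0.49 and 0.39, although 1 of the 2 probes of CCL22 read −0.002. CCL4 had 0.38 over 4 probes that were all above 0, and CCL3 had 0.06 with probes on both sides. IL10 had −0.30 over 2 probes of opposite sign, and IL6 had −0.07 over 3 probes between −1.39 and 0.80. IL23A had 0.79 and IL2RA, the alpha chain of the interleukin 2 receptor, 1.00, each on 1 probe. CCR7, a homing receptor of lymph nodes, read −0.97 on one probe and 0.10 on the other, so its mean of −0.44 had no support between probes.

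RGS1, which shortens signals of chemokine receptors and is listed among NF-kB targets, went the other way. Its 2 probes read −0.20 and −0.22 without and 0.80 and 0.71 with inhibitor. Both lay below 0 on the one array and above 0 on the other, a difference of 0.96 ± 0.05 (SD over 2 probes), or 1.95-fold. STAT5A, a transcription factor downstream of cytokine receptors, differed by 0.94 on 1 probe.

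The list of NF-kB targets as a whole was split. Of 69 listed genes 57 were measured, and 29 were above and 28 below 0. Beyond 1.5-fold, 4 were higher (IL2RA, RGS1, STAT5A and IL23A, 3 of them on 1 probe) and 2 were lower (TNFAIP3 and CXCL10), against 5.56% and 1.95% of all genes. The list's median was 0.003 against 0.06 over all genes, and it turned to −0.03 with the arrays centred on their medians and to −0.002 over the 47 members with 2 or more probes. Among these 47, all probes were above 0 in 5 and below 0 in 7. The medians of the log ratios themselves were −0.13 on both arrays, and 31 of the 57 lay below 0 on both. For all genes the medians were −0.04 without and −0.004 with inhibitor, and 1648 of 3797 lay below 0 on both. In bulk RNA a change in RNA per cell and a change in the share of cells that express a gene cannot be told apart.

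**Figure D2:**
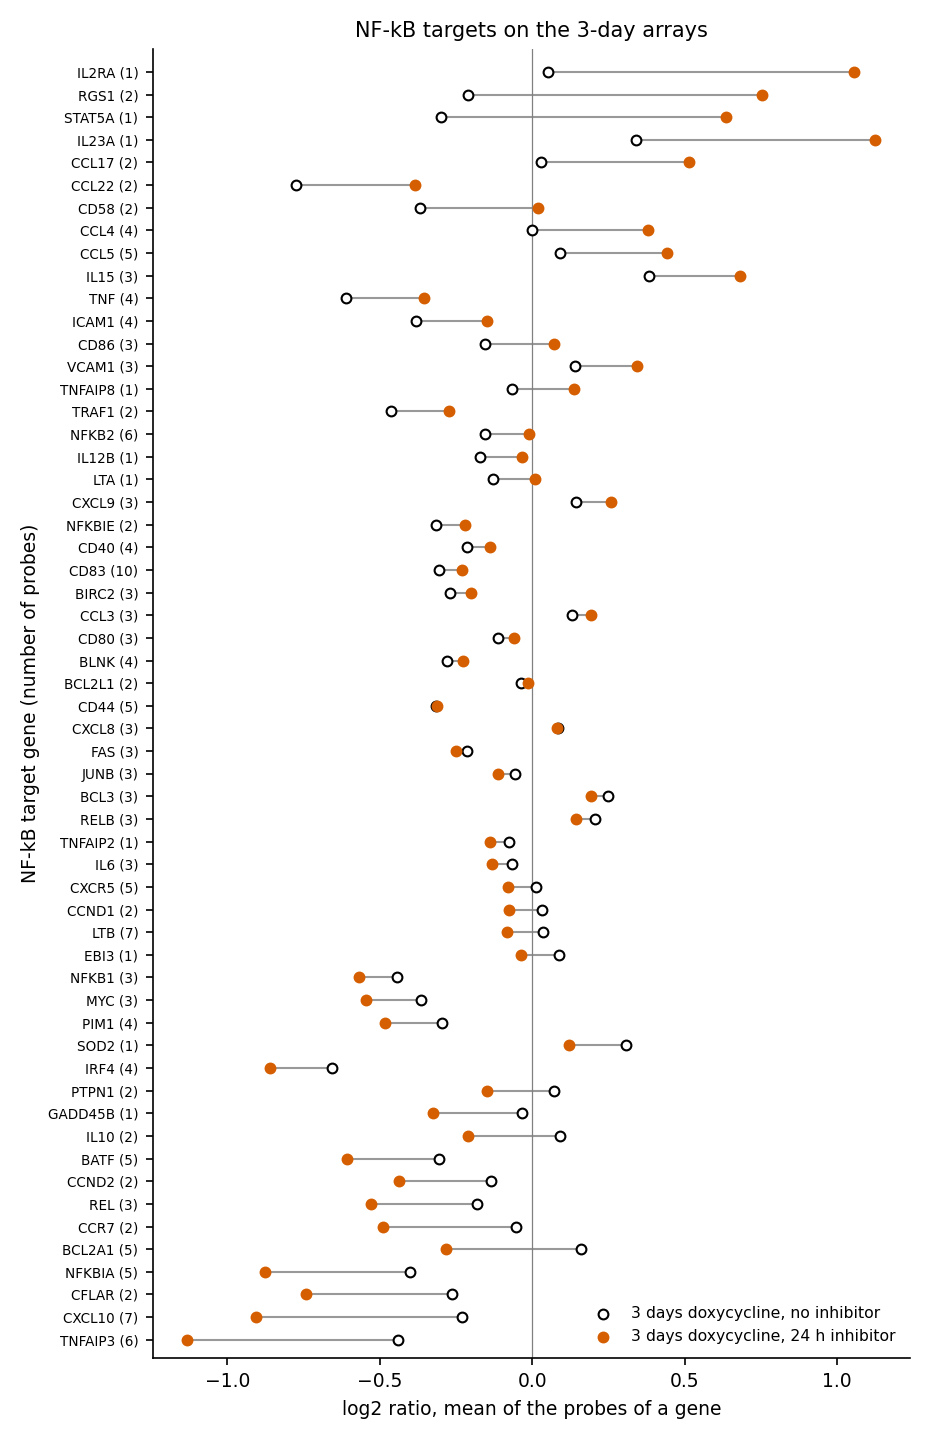
Log2 ratios of the 57 measured NF-kB targets on the array without inhibitor (open circles) and with 24 h inhibitor (filled circles), ordered by the difference, with the number of probes in brackets. TNFAIP3, CXCL10, CFLAR and NFKBIA at the bottom are lower with inhibitor, and IL2RA, RGS1, STAT5A and IL23A at the top are higher.

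The genes of the pathway itself showed 1 member beyond 1.5-fold. Of 26 measured components 14 were above and 12 below 0, with a median of 0.07 that turned to −0.01 over probes present on all 4 arrays. BCL10, an adaptor that links antigen receptors to IKK, had 0.96, but its 3 probes read 0.17, 0.36 and 2.34, so 1 probe carried the mean, and the median of its probes was 0.36. CD79A, a chain of the B cell receptor complex, had 0.52 ± 0.19 (SD over 3 probes), with all 3 above 0. NFKBIB, the inhibitor IkBb, had 0.36 over 2 probes above 0. CYLD, a deubiquitinase that restrains the pathway, had −0.47 on 1 probe.

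Genes that mark the ABC type of lymphoma were mostly lower with the inhibitor, while genes of the germinal centre B cell (GCB) type were mostly higher. Of 24 measured ABC markers 18 were below and 6 above 0, with a median of −0.21. Of the 20 with 2 or more probes, all probes were below 0 in 9 and above 0 in 1. Of 22 measured GCB markers 17 were above and 5 below 0, with a median of 0.18, and of 18 with 2 or more probes, all were above 0 in 7 and below 0 in 1. Over all genes 60.1% were above 0, and all probes were above 0 in 534 and below 0 in 319 of 1885. Neither median changed sign under any scaling, but with equal spread the ABC median shrank to −0.08 with 9 above 0. No member of either list passed 1.5-fold except MAML3, with −0.65 on 1 probe, which both lists hold. Whether the lists differ from other genes was not tested.

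Among the ABC markers, the kinase PIM2 had −0.51 over 2 probes of −0.73 and −0.29. STAT3, a transcription factor driven by interleukin 6 and interleukin 10, read −0.22 and −0.40 without and −0.73 and −0.88 with inhibitor, a difference of −0.49 ± 0.03 (SD over 2 probes). IRF4, a factor on which ABC lines depend, was low on both arrays at −0.66 and −0.86, and its difference of −0.20 had 3 of 4 probes below 0 and turned to 0.05 with equal spread. PIM1 had −0.19 with probes on both sides. TCF4 and P2RX5 (chosen after their values were seen) had −0.39 and −0.33 with both probes below 0. Among the GCB markers, CD27, a costimulatory receptor, had 0.45 ± 0.10 (SD over 3 probes), and VPREB3 had 0.39 over 2 probes, all above 0. ASB13 had 0.38 on 1 probe. BCL6, the master repressor of the germinal centre, had 0.17 with probes between −0.14 and 0.75.

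STAT3 and cytokine signalling genes had a median of −0.07, with 9 of 23 above 0, that turned to 0.02 over probes on all 4 arrays. IL2RB, the beta chain shared by the receptors of interleukin 2 and interleukin 15, had −0.52 over 2 probes, both below 0. B cell identity and receptor signalling genes split 14 to 14 with a median of 0.01, which turned to −0.02 with the arrays centred. In that list PIK3CD, a lipid kinase of receptor signalling, had −0.70 and ETS1, a transcription factor, 0.41, each on 1 probe. POU2AF1, a coactivator of immunoglobulin genes, had −0.49 over 4 probes between −0.95 and 0.46.

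PRDM1 stood out among the genes of plasma cell differentiation. It encodes Blimp-1, the repressor that drives this step. Its 3 probes read 0.96, 0.49 and 0.39 without and 0.03, −0.14 and −0.14 with inhibitor. All were above 0 on the one array and near or below 0 on the other, a difference of −0.70 ± 0.21 (SD over 3 probes), or 1.62-fold. GPR183, an oxysterol receptor that positions B cells in lymphoid tissue, showed the same pattern on 4 probes, from a mean of 0.59 to 0.04, a difference of −0.55 ± 0.10 (SD over 4 probes) that stayed within 1.5-fold. Of the other plasma cell genes IRF4, with −0.20, was also below 0. CD38, a surface ectoenzyme, had 0.66 ± 0.48 (SD over 3 probes), all above 0. JCHAIN, the joining chain of polymeric antibodies, had 0.62 over 5 probes of which 4 lay above 0, and MZB1, a chaperone of antibody secretion, had 0.21 over 3 probes above 0. XBP1 had 0.01 on 1 probe. Over the 11 measured, 9 were above 0 and the median was 0.16.

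The genes of MHC class II presentation, which show peptides to helper T cells, were the 1 list of 23 in which every measured member was higher. All 13 lay above 0, between 0.04 and 0.59, with a median of 0.32 against 0.06 over all genes. Of the 11 with 2 or more probes, 9 had all probes above 0. The median stayed between 0.29 and 0.33 under every alternative run. One member, HLA-DOB, just passed 1.5-fold with 0.59 on 1 probe. CIITA, the master regulator of these genes, read between −0.16 and 0.51 on its 6 probes without and between 0.24 and 0.88 with inhibitor. Every probe was higher, by 0.25 to 0.77, with a mean of 0.47 ± 0.23 (SD over 6 probes). HLA-DRB1 had 0.42 ± 0.27 (SD over 6 probes) and HLA-DPA1 0.39 ± 0.07 (SD over 3 probes). CD74, the invariant chain, and HLA-DRA, the alpha chain of HLA-DR (both chosen after their values were seen), had 0.32 ± 0.14 (SD over 11 probes) and 0.36 ± 0.06 (SD over 4 probes). All 11 probes of CD74 and all 4 of HLA-DRA were higher with inhibitor. The HLA genes are close copies of each other, so their probes may share signal and do not count as independent genes.

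One promoter of this group is shown for its Y box, a CCAAT element in reverse that is a known part of class II promoters. The window of HLA-DRB1 lies on the minus strand at chr6:32589799-32590098 (GRCh38.p14, RefSeq), and capitals mark the match to GATTGG, searched on both strands.
HLA-DRB1: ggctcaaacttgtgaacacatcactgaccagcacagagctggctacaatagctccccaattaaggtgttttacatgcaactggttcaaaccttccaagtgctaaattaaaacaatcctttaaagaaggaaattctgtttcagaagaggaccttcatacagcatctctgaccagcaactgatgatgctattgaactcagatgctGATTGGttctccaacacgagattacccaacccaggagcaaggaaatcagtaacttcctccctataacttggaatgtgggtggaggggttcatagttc
The match began 47 bases before the gene start. It was present in 6 of the 10 members of the class II presentation list with a promoter entry (60.0%). Of all RefSeq promoters of this length 15.7% held it, and 19.8% of those of genes on both arrays. The 10 include RFX5 and IFI30, which are not HLA genes. The HLA genes are close copies, so their promoters do not count as independent. The 6 with and the 4 without a match had like medians, 0.32 and 0.30.

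**Figure D3:**
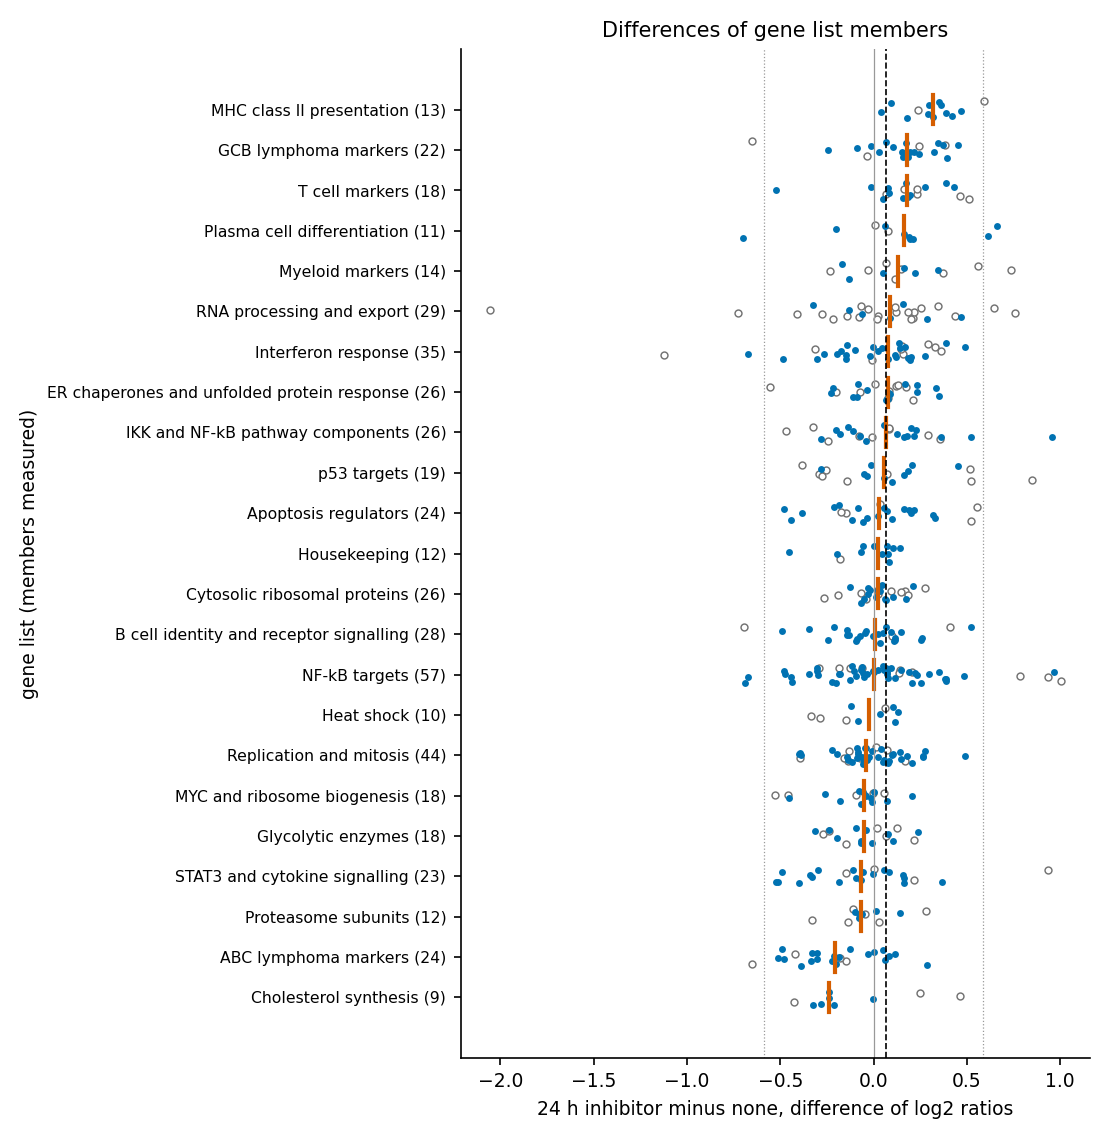
Difference of log2 ratios, 24 h inhibitor minus none, of the members of 23 gene lists. Each point is a gene, filled with 2 or more probes and open with 1, and orange bars are list medians. The dashed line is the median of all genes (0.06) and the dotted lines mark 1.5-fold. The MHC class II list lies wholly above 0, and the ABC markers and cholesterol synthesis genes lie mostly below it.

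The lowest differences among genes with agreeing probes were those of SPOPL and CXCL13. SPOPL, an adaptor of a ubiquitin ligase, read −0.01 and −0.03 on its 2 probes without and −2.03 and −1.13 with inhibitor, a difference of −1.56 ± 0.64 (SD over 2 probes). CXCL13, the chemokine that draws B cells into follicles, read −0.36 and −0.41 without and −2.12 and −1.58 with inhibitor, a difference of −1.46 ± 0.42 (SD over 2 probes), or 2.76-fold. ESCO2, an acetyltransferase of cohesin, had −0.78 ± 0.19 (SD over 3 probes). In SPOPL, CXCL13 and ESCO2 every probe passed 1.5-fold. ANKRD12 had −1.03 over probes of −1.66 and −0.41, and SLC35E1 had −0.78 over probes of −0.97 and −0.58. HLA-G, an HLA class I gene with close copies, had −0.63 on 2 probes. With TNFAIP3, PRDM1 and CXCL10 these were the 9 beyond 1.5-fold. Just inside it were PRRC2C at −0.58 and VPS4B, an ATPase of membrane remodelling, at −0.57.

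On the higher side several of the largest means rested on 1 probe. WASF3, which organises actin, had 1.39 over probes of 0.04, 0.64 and 3.48, and HCST, an adaptor of activating receptors, had 1.16 over probes of 0.003, 0.32 and 3.15. The last probe of HCST read −2.65 without inhibitor, the lowest value on that array, and 0.50 with it. The last probe of WASF3 read −1.31 without and 2.17 with inhibitor. By the median of the probes WASF3 had 0.64 and HCST 0.32. XKR6 likewise had 2.01 on 1 probe and 0.37 as the median of 3. Genes with closer probes were RGS1, given above, THBS1 and KDM7A. THBS1, a secreted matrix protein, read 0.18 and 0.59 without and 1.00 and 1.74 with inhibitor, a difference of 0.98 ± 0.24 (SD over 2 probes). KDM7A, a histone demethylase, had 0.86 ± 0.19 (SD over 2 probes). KCNH2, a potassium channel, and GNAT2, a transducin of cone cells, had 1.02 each, over probes of 0.27 and 1.77 and of 0.46 and 1.59. PTPN3, a tyrosine phosphatase, had 0.96, SFT2D1 0.90 and PDGFD, a growth factor, 0.86, each with probes more than 0.9 apart. The 37 higher genes with agreeing probes included 29 that lay further from 0 on the same side with inhibitor.

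**Figure D4:**
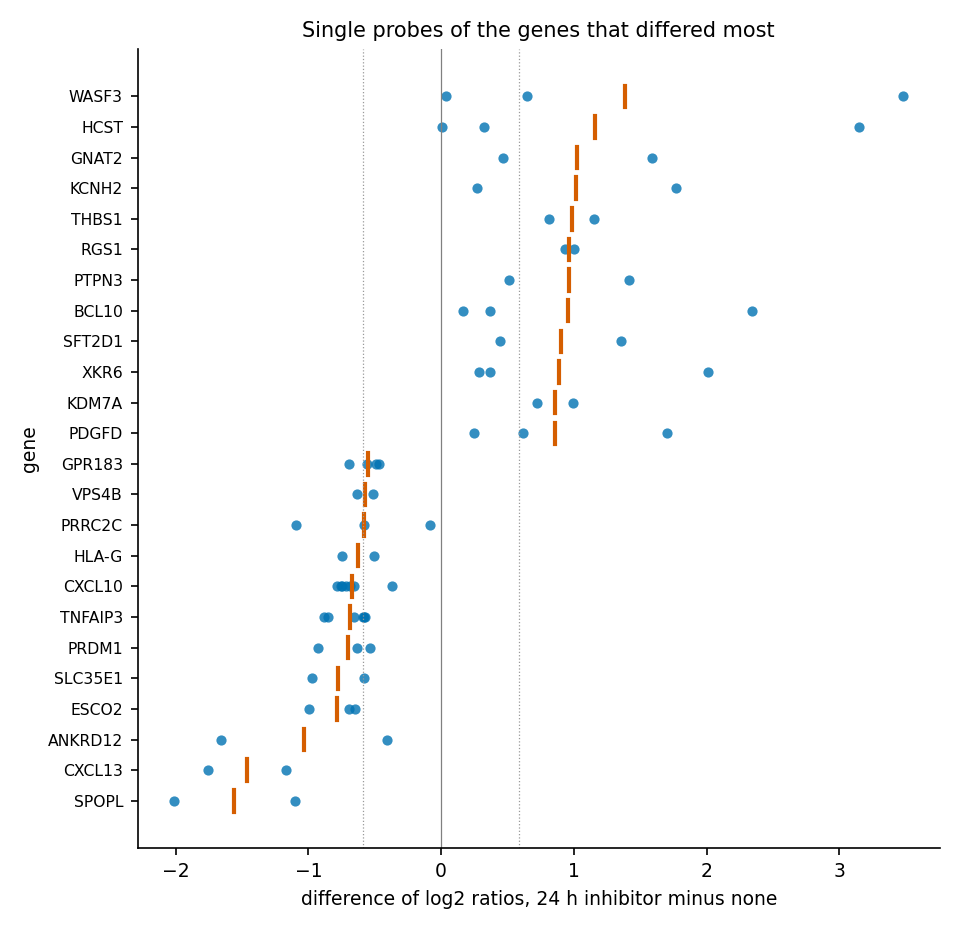
Difference of log2 ratios of every single probe (points) and their mean (orange bar) for the 12 highest and 12 lowest genes with 2 or more probes of 1 sign. Dotted lines mark 1.5-fold. Probes of TNFAIP3, CXCL10, GPR183 and RGS1 lie close together, and single probes of WASF3, HCST, BCL10 and XKR6 lie far from the others.

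The largest differences of all belonged to genes with 1 probe and so had no probe check. On the higher side these included GLRA3, a glycine receptor subunit, at 4.03, DNAJC27 at 2.73, RAB18, a GTPase of lipid droplets, at 2.62 and NAPRT, an enzyme of NAD synthesis, at 2.53. On the array without inhibitor these 4 lay between −0.08 and 0.36, so the difference came from the inhibitor array. Among the 169 higher genes with 1 probe, 50 (29.6%) had no value on at least 1 of the 2-day arrays, against 11.3% of the 62 lower ones and 10.1% of all genes with 1 probe. GLRA3 and NAPRT were among those 50. The part of low signal in these values was not tested. On the lower side THOC2, a subunit of the mRNA export complex, had −2.06, from −0.61 to −2.67. NOC3L, a nucleolar protein, had −1.65, ETV3, a repressor of the ETS family, −1.53, the deubiquitinase USP25 −1.22 and the zinc finger gene ZNF131 −1.21.

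Several lists, housekeeping genes among them, were low on both arrays and differed little between them. Over all genes the median log ratios were −0.04 without and −0.004 with inhibitor, and 1648 of 3797 genes lay below 0 on both. Genes of MYC and ribosome biogenesis had median log ratios of −0.39 without and −0.54 with inhibitor, and 17 of 18 lay below 0 on both. Their median difference was −0.05, with 14 of 18 below 0, and it turned to 0.08 with equal spread. NMD3, a ribosome export adaptor, had −0.53 and NCL, a major nucleolar protein, −0.46, each on 1 probe. Both were low already without inhibitor, at −1.43 and −0.88, and with equal spread NMD3 turned to 0.04 and NCL shrank to −0.09. TFRC, the transferrin receptor, had −0.46 over 2 probes below 0, and MYC itself had −0.18 ± 0.06 (SD over 3 probes). Housekeeping genes had medians of −0.43 and −0.52, with 11 of 12 below 0 on both arrays, and a difference of 0.03 that turned to −0.01 with centring and as a mean to −0.04. Replication and mitosis genes had medians of −0.30 on both, 36 of 44 below 0 on both, and a difference of −0.04 that turned to 0.09 with equal spread. In this list PLK1, a mitotic kinase, had −0.40 ± 0.10 (SD over 3 probes), BUB1B, of the spindle checkpoint, −0.39, BIRC5, which encodes survivin, −0.40 on 1 probe and CDC25C, a phosphatase that opens mitosis, 0.49. Glycolytic enzymes had a difference of −0.05 that turned to 0.06 with equal spread, and their 4 largest were PFKP at −0.32, GPI at −0.27, PGAM1 and PFKM at −0.24 each.

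Genes of protein handling were likewise close to 0. ER chaperones and unfolded protein response genes had a median of 0.08 with none of 26 beyond 1.5-fold. HSP90B1, the ER chaperone GRP94, was among the lowest genes on both arrays, at −1.74 and −1.82, with a difference of −0.09 over 2 probes that turned to 0.52 with equal spread. SEL1L, of the ER degradation machinery, had −0.56 on 1 probe, which equal spread brought to 0.001. HSPA5, the chaperone BiP, had 0.18 on 1 probe, DDIT3, the stress factor CHOP, 0.35 and PDIA3, a disulfide isomerase, 0.33, the last 2 with all probes above 0, as was SEC62 with 0.23. Heat shock genes had a median of −0.03 that turned to 0.05 with equal spread, with BAG2 at −0.34, HSPA1A at −0.29 and HSPA9 at −0.15 on 1 probe each. Proteasome subunits had −0.07, with PSMB7 at −0.33 and PSMD6 at 0.28 on 1 probe each, and cytosolic ribosomal proteins 0.02, which turned to −0.01 with centring, all within 0.28 of 0. RNA processing and export genes had a median of 0.09 and a mean of −0.0004. Beside THOC2, CPSF6, a factor of RNA cleavage, had −0.73, and the splicing regulators TRA2A and TRA2B 0.65 and 0.76, each on 1 probe. MATR3, a nuclear matrix protein, had 0.16 over probes of −0.52 and 0.84.

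Genes of cholesterol synthesis lay lowest among the 23 lists by their median of −0.24, and 7 of 9 were below 0. None passed 1.5-fold. Of 6 members with 2 or more probes, 4 had all probes below 0. These included SQLE with 3 probes and CYP51A1 with 2 (both chosen after their values were seen). INSIG1, which retains the sterol sensor in the ER, had −0.33 over 2 probes. SCD, a desaturase of fatty acids that the list also holds, had −0.28 over 5. IDI1, an isomerase of the mevalonate pathway, had −0.43 and LSS, lanosterol synthase, 0.46, each on 1 probe. With equal spread the median shrank to −0.13, and as a mean it was −0.11.

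Genes of the interferon response were split, 20 above and 15 below 0, with a median of 0.08 and a mean of −0.003. XAF1, a proapoptotic gene, had the highest log ratio without inhibitor, 1.80, and 0.68 with it, a difference of −1.12 on 1 probe. EIF2AK2, the kinase PKR, had −0.49 and IFIT2 0.49, each with both probes of 1 sign. Among the apoptosis regulators, with a median of 0.03 that turned to −0.004 with centring, HRK and BBC3, both proapoptotic, had 0.56 and 0.52 on 1 probe each. Among the p53 targets, with 10 of 19 above 0, TP53INP1 had 0.85 and AEN 0.52 on 1 probe each, and MDM2, which degrades p53, 0.45 over 2 probes above 0.

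Genes listed as markers of other blood cells were mostly higher with inhibitor. The log ratios hold no levels, so they cannot show whether the line expresses these genes. Of 18 T cell markers 16 were above 0 with a median of 0.18, and of 14 myeloid markers 10 with a median of 0.13. Over all genes 60.1% were above 0, with a median of 0.06. With equal spread the myeloid median shrank to 0.04 with 8 of 14 above 0, and the T cell median to 0.11 with 14 of 18. Under that scaling 65.9% of all genes were above 0, with a median of 0.08. CD8B had 0.51, CD8A 0.46 and CSF1R, a receptor of macrophages, 0.74, each on 1 probe, and GNLY, a granule protein, had 0.43 over 3 probes above 0. ITGAM, a myeloid integrin, had 0.34 over 2 probes, and PF4 and AIF1 had 0.56 and 0.37 on 1 probe each. The lowest T cell marker was IL2RB with −0.52 over 2 probes below 0, and the lowest myeloid marker was CD14 (chosen after its value was seen) with −0.23. Of their probes 45.2% and 46.5% lacked a value on at least 1 of both 3-day arrays, against 27.7% over all genes, 29.3% for the GCB markers, 23.5% for MHC class II, 15.6% for the ABC markers and 0% for housekeeping genes. The part of such probes in the direction of a list was not tested.

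The arrays at 2 days, with 3 h of the inhibitor against none, held another length of both treatments. They are set beside the 3-day values and are not replicates of them. The median difference there was −0.002 over 3589 genes, of which 49.7% were above 0. The NF-kB target list had a median of −0.07 at 2 days with 33 of 54 below 0, against 0.003 and 28 of 57 at 3 days. Among its members NFKBIA had −0.60, TNFAIP3 −0.42, CXCL10 −0.52 and CFLAR −0.52 at 2 days, all below 0 as at 3 days. CCL22 and CCL4 had 0.68 and 0.33 at 2 days, both above 0 as at 3 days. Other genes of the named set changed sides. CCL3 had −0.235 at 2 days against 0.065 at 3 days, BCL3 0.16 against −0.06 and PIM1 0.07 against −0.19. CCR7 had 0.08 on 1 probe at 2 days, against −0.44 over 2 probes at 3 days. CXCL13 had −0.64 against −1.46 at 3 days. CHUK had −0.71 against −0.14, from log ratios of −0.59 and −1.30. STAT3 had −0.04 against −0.49, PRDM1 −0.08 against −0.70, SPOPL −0.12 against −1.56, and RGS1 0.13 against 0.96. MYC had −0.56 against −0.18 and HSP90B1 −0.61 against −0.09. The MHC class II list had 6 of 12 above 0 at 2 days with a median of −0.01, against 13 of 13 and 0.32. ABC markers had −0.04 against −0.21, GCB markers −0.01 against 0.18, and cholesterol synthesis genes 0.07 against −0.24. The differences between times were not tested, since each had 1 array a side.

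Of the 9 lower genes with agreeing probes beyond 1.5-fold at 3 days, 8 were below 0 at 2 days, with a median of −0.21. The exception was SLC35E1 with 0.58. Of the 37 higher genes 35 had a value at 2 days, and 23 were above and 12 below 0, with a median of 0.15. At 2 days 62 of 3589 genes were higher and 49 lower beyond 1.5-fold, against 211 and 74 of 3797 at 3 days. Across all genes 20 passed 1.5-fold at both times, 15 of them to the same side, and 18 of the 20 had 1 probe. The size of this overlap was not tested.

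**Figure D5:**
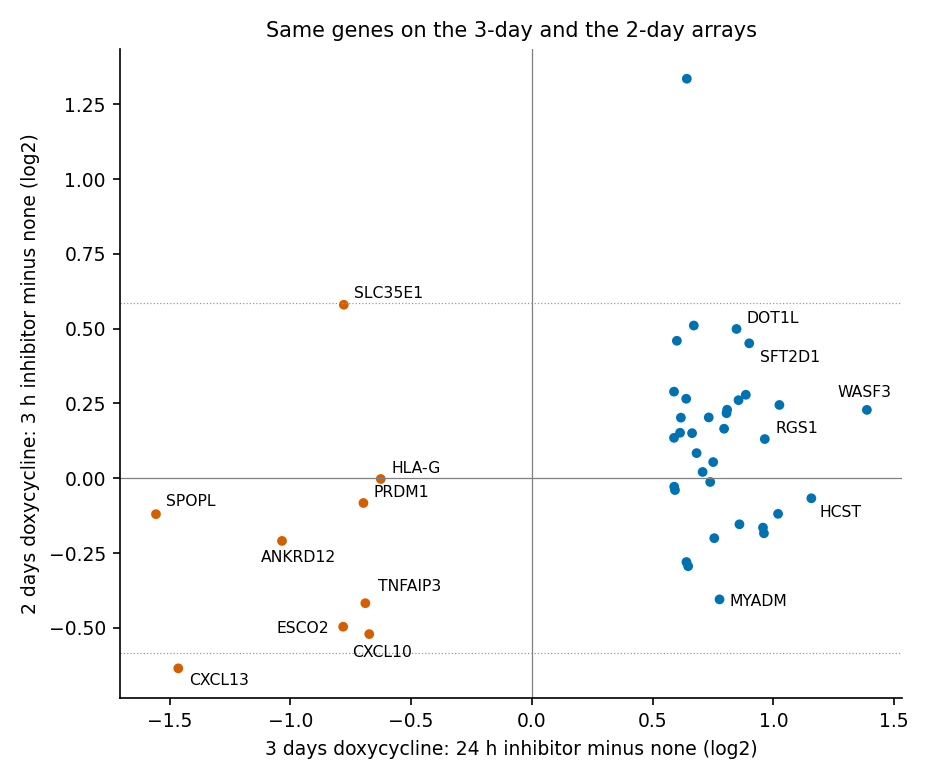
Difference of log2 ratios, inhibitor minus none, at 3 days of doxycycline with 24 h inhibitor (horizontal axis) and at 2 days with 3 h inhibitor (vertical axis), for the genes with agreeing probes beyond 1.5-fold at 3 days (orange lower, blue higher). Dotted lines mark 1.5-fold at 2 days. CXCL13 passes it at both times, and most blue points lie between −0.50 and 0.50 at 2 days.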

How the data were processed

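RNA of OCI-Ly3 cells was hybridised to 4 two-colour arrays, 1 per condition. The deposited values are read as log2 ratios of both channels, and they lay centred near 0 (array medians 0 and −0.004 on the 3-day arrays). The base is read as log2 from the range of the values. The scanner, background correction, normalization, spot filter and reason for missing values are not given in the labels or file used here. Intensities were not used, so signal over background is unknown, and precision is limited by having 1 array a side. Across the 4 arrays the Pearson r over probes was 0.36 to 0.72. Symbols came from the platform annotation: 10169 of 15246 probes had 1 symbol, 4 had several and 5073 had none, and 10128 of the 10169 matched a RefSeq gene.

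The difference of log2 ratios was taken per probe and averaged per gene, with Python 3.11.15, numpy 2.4.6 and pandas 2.3.3. The threshold was 1.5-fold, a difference of 0.58 on the log2 scale. The steps were tested on simulated data with known differences. No test was run, since each side held 1 array. Both arrays carried the doxycycline RNA in Cy5, so a dye effect of the same size on both drops out of the difference.

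Named were CHUK, the 12 highest and 12 lowest genes with 2 or more probes of 1 sign, the 5 highest and 5 lowest with 1 probe, up to 4 members a list with the largest absolute difference, and a set of NF-kB, lymphoma and stress genes. One gene under this rule is not reported here. Genes outside this rule were chosen after their values were seen. The members, the 23 lists and the named set were chosen with earlier results of these data known, so no list is independent support. Promoters came from a RefSeq table of GRCh38.p14, searched for the motifs on both strands. Alternatives were centring, equal spread of both arrays, probes on all 4 arrays, the median of probes, genes with 2 or more probes, 2-fold, and single probes.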

Additional observations from a re-analysis of the deposited data

Results flagged for a closer look

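RAB18, a GTPase of lipid droplets with 1 probe, differed by 2.62 between the 3-day arrays and by −0.75 between the 2-day arrays. It drew attention because it passed 1.5-fold to opposite sides at both times. The difference between times was not tested, since each time had 1 array a side, and no other probe of the gene checks it.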

How the results depend on the processing

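The counts of genes beyond 1.5-fold moved with the choice of genes and threshold more than with centring. Higher genes numbered 211, and 139 with both arrays scaled to equal spread, 42 over genes with 2 or more probes, 43 at 2-fold and 450 when single probes were counted. Lower genes numbered 74, and 12 over genes with 2 or more probes, 14 at 2-fold and 207 as single probes. With centring they were 189 and 85, and over probes on all 4 arrays 162 and 71. No scaling moved the median of all genes by more than 0.033.

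Of 135 named genes the sign turned in 2 with centring, 9 with equal spread and 4 with the median of probes, and in 2 of 127 over probes on all 4 arrays. Of 45 named genes beyond 1.5-fold, 35 were so with equal spread. Over probes on all 4 arrays CCR7 had −0.97 and MATR3 −0.52, each from 1 remaining probe. The cause of these shifts was not tested. With 1 array a side, neither culture nor hybridisation error could be measured, and probe agreement covers neither.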

Other observations

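Among the genes beyond 1.5-fold at both times, CXCL13 and ST3GAL1, a sialyltransferase, had 2 probes, and the other 18 had 1. ST3GAL1 was higher at both, by 0.64 at 3 days and 1.34 at 2 days. ETV3 (−1.53 and −0.60), USP25 (−1.22 and −0.62), WSB1 (−0.98 and −0.63) and HLTF (−0.59 and −1.03) were lower at both. IL23A, a subunit of interleukin 23, was higher at both, by 0.79 and 1.25. ZNF764 was higher by 0.87 at 3 days and had −1.52 at 2 days. Genes named here only were chosen after their values were seen.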
